A study of Schizosaccharomyces pombe with 16 samples.

Results

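The genes eaf6 (SPAC6F6.09), mpn1 (SPAC23C11.10), mug62 (SPAC22F3.04) and cdd1 (SPAC1556.04c) of fission yeast (Schizosaccharomyces pombe) were examined with all of their array probes. They were selected on the values of their exon probes, which read far from wild type in only some of 4 mutants of RNA polymerase II, a choice with no numeric threshold. Each gene had 1 exon probe, in exon 2 of eaf6, exon 5 of mpn1 and exon 1 of both mug62 and cdd1. An exon value therefore reads a single exon and not the whole gene. The 4 genes held 35 of the 15207 probes on the array and are 4 of its 5195 genes. Since exon values chose them, those values are given as a description and were not tested.

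The series measured strains altered in the C-terminal domain (CTD) of Rpb1, the largest subunit of RNA polymerase II, a tail of heptad repeats. Per the labels, all 4 mutants kept 18 so-called rump repeats followed by 14 altered ones, reading YSPTSPA in S7A, YAPTSPS in S2A, YAPTSPA in S2A/S7A and YSPTSPE in S7E. The control was labelled only as WT, and whether it carried rump repeats too is not stated. Cultures were in YES, a rich medium, and were taken in mid-log phase, each replicate being a culture of its own. Each array held total RNA of 1 mutant culture in 1 dye and WT RNA in the other, and there were 4 arrays of S7A, 4 of S2A, 5 of S2A/S7A and 3 of S7E. This number of arrays limits the precision. Of the probes, between 13061 and 14918 had a value on an array. Array medians lay between -0.0265 and 0.0267.

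Serines of the CTD heptad are phosphorylated as the polymerase moves along a gene, and the marked tail recruits factors that cap, splice, end and package the transcript. eaf6 encodes a subunit shared by the NuA4 and Mst2 histone acetyltransferase complexes. mpn1, also named usb1, encodes an exonuclease that trims the 3′ end of the spliceosomal U6 RNA. cdd1 encodes a cytidine deaminase, which turns cytidine into uridine for pyrimidine salvage. mug62 is named for a rise of its RNA in meiosis, and no molecular role is given for it here.

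Values are log2 ratios of the mutant over WT. Neither the base nor the direction is given in words by the labels or headers. Both are the likely reading, and every sign below rests on it. A value of 0 means no difference from WT, and ± is the SD over arrays for exon values and the standard error (SE) of the limma fit for tested probes. The array also carried intron probes, which read unspliced RNA, junction probes, which read RNA with 2 adjacent exons joined, and skipping probes, which read RNA with an exon left out. In total RNA from a culture, a change in a few cells and a smaller change in all of them cannot be told apart.

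The exon probe of eaf6 read high in the 2 mutants with alanine in place of serine 7 and near WT in S2A and S7E. It read 3.31, 2.80, 2.78 and 2.76 on the 4 S7A arrays. On the 5 S2A/S7A arrays it read 3.53, 3.36, 3.17, 2.70 and 2.64. The S2A arrays gave -0.17, 0.051, 0.23 and 0.029, and the S7E arrays 0.14, -0.077 and 0.16. The S7A and S2A/S7A arrays overlapped with each other and lay wholly above the S2A and S7E arrays, which also overlapped. The means were 2.91 ± 0.27 in S7A (SD, n = 4, 7.53-fold WT) and 3.08 ± 0.40 in S2A/S7A (SD, n = 5, 8.46-fold), against 0.035 ± 0.16 in S2A (SD, n = 4) and 0.075 ± 0.13 in S7E (SD, n = 3). Both dye orientations gave this pattern: with the mutant in Cy5 the lowest array was at 2.76 in S7A and 3.17 in S2A/S7A, and with the mutant in Cy3 at 2.78 and 2.64.

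The other probes of eaf6, for its only intron and its only exon junction, did not follow the exon probe. Intron 1 was at 0.084 ± 0.045 in S7A (limma adjusted p = 0.161). The S2A/S7A value was 0.098 ± 0.041 (adjusted p = 0.0504), and neither passed the test. The junction of exons 1 and 2 was at 0.079 ± 0.059 in S7A (adjusted p = 0.316). On single S7A arrays this junction lay between -0.076 and 0.26, a range wholly below that of the exon probe on the same arrays. In S2A/S7A the junction was slightly lower than WT, at -0.14 ± 0.053 (adjusted p = 0.0373), a call lost when replicate 1 (adjusted p = 0.130), 2, 4 or 5 of S2A/S7A was left out. It was lower in S2A as well, at -0.20 ± 0.059 (adjusted p = 0.00924), lost without S2A replicate 2 (adjusted p = 0.0581). In S7E the intron was higher, at 0.26 ± 0.064 (adjusted p = 0.00316), a value that rests on 2 of 3 arrays and a call lost with the arrays of each mutant fitted alone (adjusted p = 0.0619). Between mutants the junction was lower in S2A than in S7A (-0.28 ± 0.084, adjusted p = 0.0141) and lower in S2A/S7A than in S7A (-0.22 ± 0.080, adjusted p = 0.0459). The first of these calls was lost without S7A replicate 3 (adjusted p = 0.0556). The second was lost without any 1 of S7A replicates 1 to 3, S2A/S7A replicates 1, 2, 4 and 5, S2A replicates 1 to 3 and S7E replicate 3, with adjusted p between 0.0524 and 0.196. So the exon value exceeded the junction value of the same array by 2.83 ± 0.30 in S7A (SD, n = 4) and 3.22 ± 0.40 in S2A/S7A (SD, n = 5), against 0.24 ± 0.15 in S2A and 0.20 ± 0.032 in S7E. With only ratios given, whether the junction and intron probes of eaf6 stood above background was not tested.

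**Figure D1:**
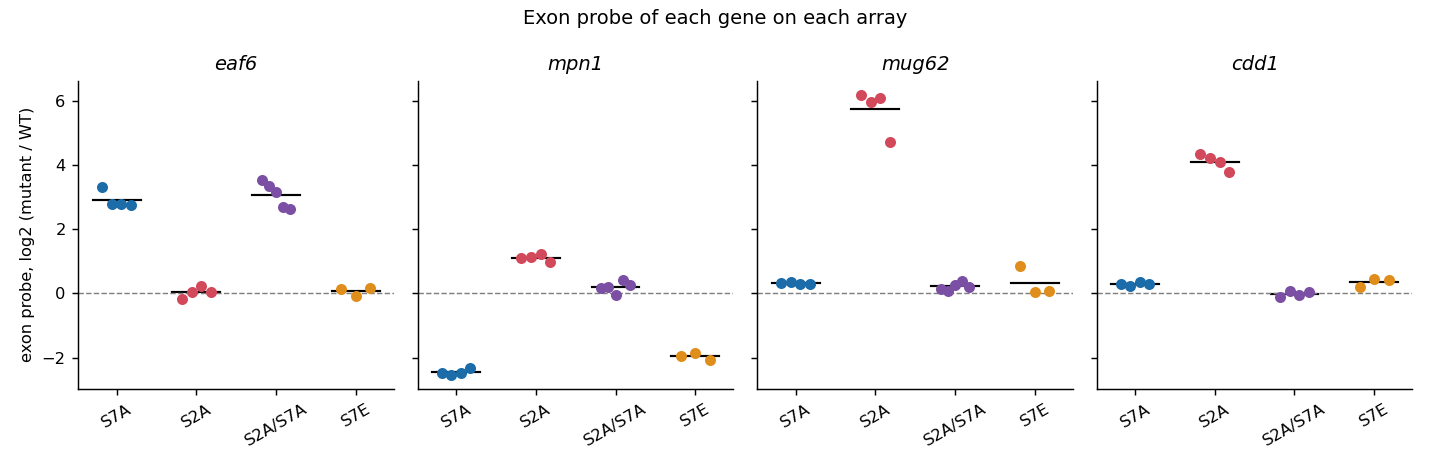
Exon probe of each of the 4 genes on each array, as log2 of mutant over WT (vertical axis), by mutant (horizontal axis). Points are arrays and bars are group means. The points of eaf6 lie near 3 in S7A and S2A/S7A, those of mpn1 fall into 4 separate groups, and those of mug62 and cdd1 lie above 3 in S2A alone.

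mpn1 had a different value in each mutant, and here nearly all probe kinds moved together. Its exon probe read -2.47, -2.53, -2.49 and -2.32 on the S7A arrays, and 1.11, 1.14, 1.21 and 0.98 on the S2A arrays. On the S2A/S7A arrays it read 0.17, 0.19, -0.043, 0.41 and 0.27. On the S7E arrays it read -1.94, -1.84 and -2.09. No 2 mutants overlapped, and the order was S7A lowest, then S7E, then S2A/S7A, then S2A. The means were -2.45 ± 0.094 in S7A (SD, n = 4, 5.47-fold below WT), 1.11 ± 0.099 in S2A (SD, n = 4, 2.16-fold above WT), 0.20 ± 0.16 in S2A/S7A (SD, n = 5) and -1.96 ± 0.12 in S7E (SD, n = 3, 3.88-fold below WT).

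mpn1 had 4 intron, 4 junction and 2 skipping probes, all of them measured in every mutant. They read the same RNA on the same arrays as the exon probe that chose the gene, so their tests measure how far each probe stood from the spread between arrays and are not independent support of the choice. In S7A 9 of the 10 fell and 0 rose, where 24.1% of all tested junction, skipping and intron probes fell and 16.2% rose. In S2A 9 rose and 1 fell, where 23.1% of all such probes rose and 26.1% fell. S2A/S7A had 4 higher and 1 lower, against 25.2% and 32.2% of all such probes. In S7E all 10 fell and 0 rose, against 26.4% and 25.5% of all such probes.

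In S7A and S7E, introns 1, 2 and 3 of mpn1 read further below WT than its exon, and intron 4 less far. Introns 1, 2 and 3 were at -3.19 ± 0.11, -3.28 ± 0.095 and -3.22 ± 0.084 in S7A (adjusted p = 1.66e-11, 2.76e-12 and 2.76e-12), which for intron 2 is 9.70-fold below WT. Intron 4, the last, was at -2.08 ± 0.11 in S7A (adjusted p = 2.11e-09). In S7E the same 4 introns were at -2.10, -2.24, -2.24 and -1.33. In S2A they were at 1.05, 0.94, 1.05 and 1.44, all past the test. Intron 4 thus stood above the other introns in every mutant. In S2A/S7A introns 1, 2 and 3 lay between 0.072 and 0.16, none past the test, and intron 4 rose by 0.43 ± 0.097 (adjusted p = 0.00128).

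In S7A and S7E the junction probes of mpn1 moved less than introns 1 to 3, and 1 of them did not follow the others. This did not hold throughout. The junction of exons 4 and 5 in S7A moved further than intron 4, and that of exons 1 and 2 in S2A further than introns 1 to 3. In S7A the junction of exons 1 and 2 was at -1.64 ± 0.066, that of exons 3 and 4 at -1.63 ± 0.058, and that of exons 4 and 5 at -2.44 ± 0.088. In S7E they were at -1.28, -1.50 and -1.73, and in S2A at 1.11, 0.91 and 1.00. The junction of exons 2 and 3 was at -0.049 ± 0.048 in S7A (adjusted p = 0.440), although introns 1 to 3 and both neighbouring junctions of that mutant read far below WT. It was lower than WT in S2A (-0.20 ± 0.048, adjusted p = 0.00265), where every other probe of the gene was higher, and lower in S2A/S7A (-0.30 ± 0.043, adjusted p = 2.61e-05) and S7E (-0.82 ± 0.056, adjusted p = 1.80e-08). Its arrays lay between -0.18 and 0.13 in S7A, between -0.28 and -0.16 in S2A, between -0.34 and -0.24 in S2A/S7A and between -0.87 and -0.74 in S7E. S7E was therefore the lowest mutant on this junction and overlapped with none of the others, while S7A had the lowest mean on the other 3. Without probe sequences, what else this probe may bind was not tested.

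The 2 skipping probes of mpn1 followed the gene rather than standing apart from it. The probe joining exons 3 and 5 was at -1.51 ± 0.075 in S7A, 0.93 ± 0.075 in S2A, 0.21 ± 0.068 in S2A/S7A and -1.04 ± 0.088 in S7E, all past the test. In S2A/S7A that call was lost without S2A/S7A replicate 1 (adjusted p = 0.0738). The probe joining exons 2 and 5 was at -1.13 ± 0.15 in S7A, 0.78 ± 0.15 in S2A and 0.11 ± 0.14 in S2A/S7A (adjusted p = 0.517). In S7E it was at -0.50 ± 0.18 (adjusted p = 0.0269), with single arrays from -1.16 to 0.32, and the call was lost without S7E replicate 2 (adjusted p = 0.131) or 3 (adjusted p = 0.349).

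Set against each other on the same array, the probe kinds of mpn1 kept a fixed order in S7A. The mean of the 4 introns was -2.94 ± 0.34 in S7A (SD, n = 4), and the mean of the 4 junctions was -1.44 ± 0.054. Introns thus read below junctions by 1.50 ± 0.29 in S7A, with every array between -1.70 and -1.08. The same difference, introns minus junctions, was -0.65 ± 0.097 in S7E, 0.41 ± 0.089 in S2A and 0.11 ± 0.070 in S2A/S7A. The exon probe lay close to the introns in S7E, S2A and S2A/S7A, with differences of 0.028 ± 0.060, -0.011 ± 0.085 and 0.015 ± 0.090, and above them by 0.49 ± 0.26 in S7A. The junction of exons 2 and 3 takes part in these junction means. It was at -0.20 in S2A, where the other junctions were at 1.11, 0.91 and 1.00. In S7A it was at -0.049, where they were at -1.64, -1.63 and -2.44. It therefore widened the difference between introns and junctions in both mutants, and means without it were not taken.

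Between mutants, the differences of mpn1 were largest between S2A and S7A on every probe but the junction of exons 2 and 3, while all 10 probes passed the test in S7E minus S2A and in S2A/S7A minus S7A. In S2A minus S7A, 9 of the 10 probes were higher and 0 lower, where 21.6% and 17.4% of all tested junction, skipping and intron probes were, and the intron differences ran from 3.52 to 4.28. In S2A/S7A minus S7A, 9 were higher and 1 was lower (17% and 16.2% of all such probes), and in S7E minus S7A 8 were higher and 1 was lower (19.2% and 15.7%). S2A/S7A minus S2A had 0 higher and 9 lower (7.4% and 10.5% of all such probes), with introns between -1.01 and -0.87. In S7E minus S2A 0 were higher and all 10 lower (12.5% and 13.5% of all such probes), and in S7E minus S2A/S7A 0 were higher and 9 lower (14.6% and 12.6%). So S2A/S7A lay between S7A and S2A in introns 1 to 4, in both skipping probes and in the junctions other than that of exons 2 and 3. All 4 mutants were set against WT on their own arrays, and contrasts that have a mutant in common are not independent of each other.

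**Figure D2:**
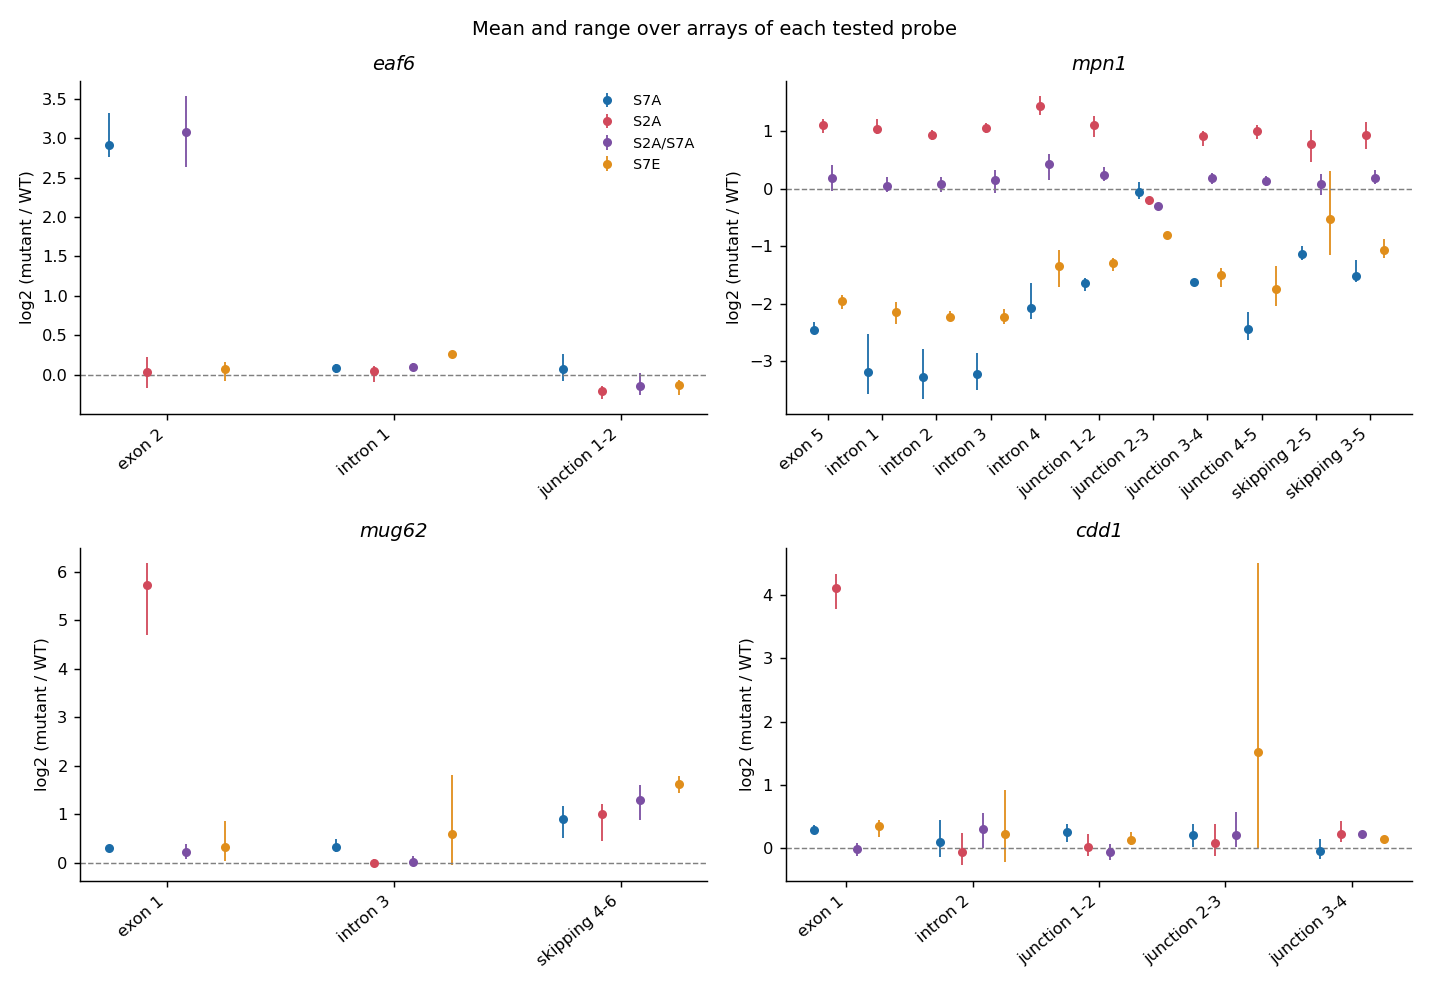
Every tested probe of the 4 genes (horizontal axis), with the mean over arrays (points) and the lowest to highest array (lines) in each mutant, as log2 of mutant over WT (vertical axis). The probes of mpn1 keep the order of the mutants except at the junction of exons 2 and 3. The exon probe is far from 0 for eaf6 in S7A and S2A/S7A, and for mug62 and cdd1 in S2A. Most other probes of eaf6 and cdd1 lie near 0, while the skipping probe of mug62 lies above 0 in all 4 mutants. The long line of cdd1 at the junction of exons 2 and 3 comes from 1 S7E array at 4.51.

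mug62 stood far above WT on its only exon probe, that of exon 1, in S2A and in no other mutant. The probe read 6.18, 5.96, 6.10 and 4.70 on the S2A arrays. It read 0.31, 0.36, 0.30 and 0.30 on the S7A arrays, 0.13, 0.090, 0.27, 0.38 and 0.21 on the S2A/S7A arrays, and 0.87, 0.047 and 0.085 on the S7E arrays. The lowest S2A array, replicate 4, thus lay above the highest array of the other mutants, S7E replicate 1. The means were 5.74 ± 0.69 in S2A (SD, n = 4, 53.3-fold WT), against 0.32 ± 0.026 in S7A (SD, n = 4), 0.22 ± 0.12 in S2A/S7A (SD, n = 5) and 0.33 ± 0.46 in S7E (SD, n = 3). S7A, S2A/S7A and S7E overlapped. In S2A the mean was 5.44 where the mutant was in Cy5 and 6.03 where it was in Cy3.

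Of the other 11 probes of mug62, 2 had values on enough arrays to be tested, the intron 3 probe and a probe joining exons 4 and 6. Intron 3 read 0.0091 ± 0.19 in S2A (adjusted p = 0.973), with every S2A array between -0.015 and 0.081. The exon probe thus exceeded the intron probe on the same S2A array by 5.73 ± 0.68 (SD, n = 4). Only ratios were given, so whether this intron probe stood above background was not tested. In S7E intron 3 was at 0.66 ± 0.22 (adjusted p = 0.0209), but 1 array set this value: replicate 1 read 1.81, the others -0.043 and 0.044, and without it the estimate was 0.0008 (adjusted p = 0.994). In S7A intron 3 was at 0.32 ± 0.19 (adjusted p = 0.198), with single arrays between 0.23 and 0.49. It passed the test there without S7E replicate 1 (adjusted p = 0.000318) and with the arrays of each mutant fitted alone (adjusted p = 0.00265).

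The skipping probe of mug62 was above WT in all 4 mutants, unlike the exon probe. It rose by 0.90 ± 0.14 in S7A (adjusted p = 0.000101), 1.01 ± 0.14 in S2A (adjusted p = 1.74e-05), 1.28 ± 0.12 in S2A/S7A (adjusted p = 3.67e-07), and by 1.61 ± 0.16 in S7E (adjusted p = 8.49e-07). All 16 arrays were above 0, with 0.52 to 1.18 in S7A, 0.45 to 1.22 in S2A, 0.89 to 1.61 in S2A/S7A and 1.45 to 1.80 in S7E. Of the 371 skipping probes tested over all genes, 38.8% rose in S7A, 16.7% in S2A, 23.5% in S2A/S7A and 46.9% in S7E. The mutant with the high exon value, S2A, did not stand out on the skipping probe: S7E was higher than S2A by 0.60 ± 0.21 (adjusted p = 0.0418) and higher than S7A by 0.71 ± 0.21 (adjusted p = 0.0154). The difference from S2A was lost without any 1 of S7E replicates 1 and 2, S2A replicates 2 to 4, S7A replicate 2 and S2A/S7A replicate 1 (adjusted p from 0.0525 to 0.119), with the replicate block (0.0620) and with arrays scaled to equal spread (0.156). The difference from S7A was lost without S7E replicate 1 (adjusted p = 0.0513) or 2 (0.0550) and with that scaling (0.327). S2A minus S7A was 0.10, not past the test. None of the 5 junction probes of mug62 could be tested, so spliced RNA of adjacent exons was not compared between groups for this gene.

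cdd1 was, like mug62, far above WT on its only exon probe, that of exon 1, in S2A alone. The probe read 4.33, 4.23, 4.09 and 3.78 on the S2A arrays. It read 0.29, 0.23, 0.37 and 0.28 on the S7A arrays and 0.19, 0.45 and 0.41 on the S7E arrays. On S2A/S7A arrays 1, 2, 3 and 5 it read -0.11, 0.083, -0.057 and 0.051, and array 4 had no value. The means were 4.11 ± 0.24 in S2A (SD, n = 4, 17.3-fold WT), against 0.29 ± 0.056 in S7A (SD, n = 4), -0.0087 ± 0.091 in S2A/S7A (SD, n = 4) and 0.35 ± 0.14 in S7E (SD, n = 3). S7A and S7E overlapped, and S2A/S7A lay wholly below S7A and S7E. In S2A the mean was 4.06 where the mutant was in Cy5 and 4.16 where it was in Cy3.

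The junction and intron probes of cdd1 stayed close to WT in S2A. The junction of exons 1 and 2 was at 0.026 ± 0.065 (adjusted p = 0.765), and that of exons 2 and 3 at 0.093 ± 0.41 (adjusted p = 0.870). On single S2A arrays the latter lay between -0.12 and 0.39. The junction of exons 3 and 4 rose by 0.23 ± 0.063 (adjusted p = 0.00853), a call lost without S2A replicate 4 (adjusted p = 0.0501). Intron 2 was at -0.051 ± 0.088 (adjusted p = 0.661). The exon value of an S2A array therefore exceeded the mean of its 3 junctions by 3.99 ± 0.40 (SD, n = 4), with the 4 arrays between 3.43 and 4.33. Whether these junction and intron probes of cdd1 stood above background was not tested, since only ratios were given. Its junction of exons 4 and 5 and its intron 4 had no value on any array, and intron 1 had values on 2 arrays.

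In the other mutants the changes of these probes were small or rested on 1 array. In S7A the junction of exons 1 and 2 rose by 0.26 ± 0.065 (adjusted p = 0.00607), beside an exon mean of 0.29. In S2A/S7A intron 2 rose by 0.31 ± 0.088 (adjusted p = 0.00788) and the junction of exons 3 and 4 by 0.23 ± 0.089 on 2 arrays (adjusted p = 0.0443). The intron call was lost with no dye term in the fit (adjusted p = 0.0964), and the junction call without any 1 of S7A replicate 3, S2A replicates 2 and 3 and S7E replicates 2 and 3 (adjusted p from 0.0539 to 0.0583). In S7E the junction of exons 2 and 3 was at 1.67 ± 0.48 (adjusted p = 0.00900), but S7E replicate 1 read 4.51 and the others 0.036 and -0.00083. Without that array the estimate was 0.11 (adjusted p = 0.458). Intron 2 in S7E, at 0.31 ± 0.10 (adjusted p = 0.0197), was likewise lost without S7E replicate 1 (0.073, adjusted p = 0.566). The fit shares 1 estimate of the spread over all groups. S7E replicate 1 therefore also widened the SE of the junction of exons 2 and 3 in the other mutants. Without this array that junction passed the test in S7A (0.21, adjusted p = 0.0389) and S2A/S7A (0.23, adjusted p = 0.00921).

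A gap between exon and junction probes of the size seen in eaf6 and cdd1 was rare on these arrays. Of 2173 genes with an exon probe and tested junction probes, the fitted exon value differed from the junction mean by at least 2 in 1 gene in S7A, 1 in S2A, 1 in S2A/S7A and 0 in S7E. These were eaf6 in S7A and S2A/S7A and cdd1 in S2A. The 5th and 95th percentiles of the difference over all these genes were -0.28 and 0.12 in S7A, -0.22 and 0.25 in S2A, and -0.21 and 0.20 in S2A/S7A. 6 genes of the 2173 had an exon value of at least 2 in size in some mutant, in 9 pairs of gene and mutant, and in 3 of these pairs, those of eaf6 and cdd1, the junction mean was under 0.5. These limits were chosen after the values were seen, and the exon side of the difference is what chose the genes.

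Measured against introns, 4 of 2192 genes differed by at least 2 in S2A. These were mug62 (5.73), cdd1 (4.16), SPBC2A9.13 (exon 2.61, intron mean 0.41) and the M-factor pheromone gene mfm2, whose exon was at -2.56 and intron at -0.11. In S7A and in S2A/S7A eaf6 was the 1 such gene (2.83 and 2.99), and in S7E it was nar1, with its exon at -0.997 and its intron mean at 1.07. The 5th and 95th percentiles over all these genes were -0.56 and 0.43 in S2A. mpn1, with exon and introns both far from WT in S7A, S2A and S7E, lay near the line of equal change. In S2A/S7A its exon and intron means were 0.20 and 0.18. The exon of mpn1 lay furthest from its introns in S7A, 0.49 above them, where the 95th percentile over all these genes was 0.57.

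**Figure D3:**
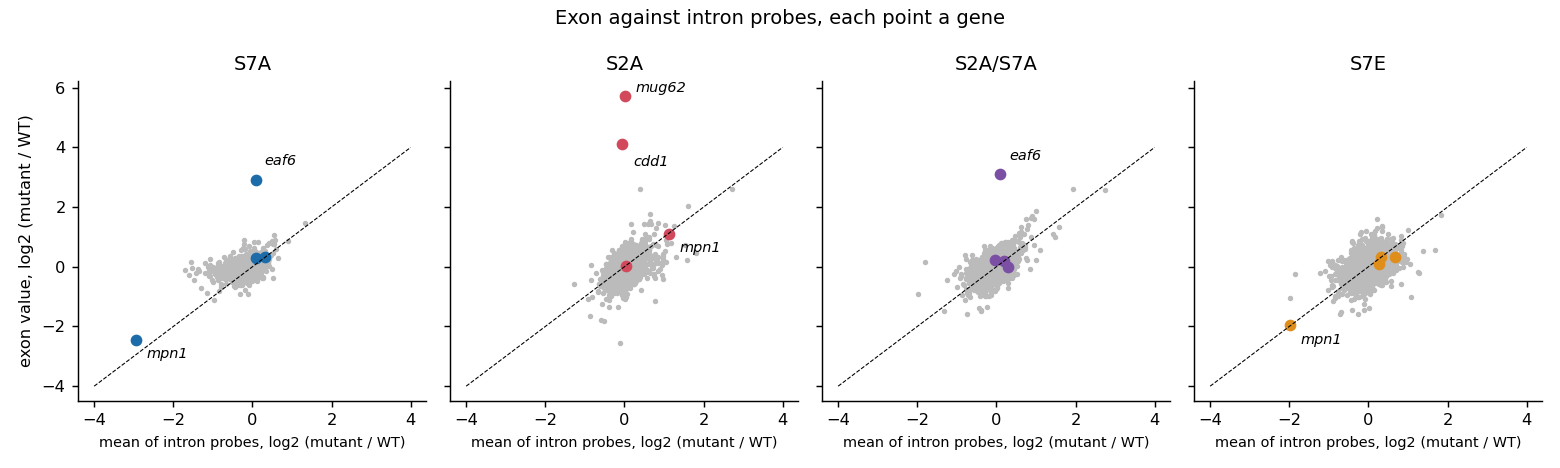
Fitted exon value (vertical axis) against the mean of the intron probes (horizontal axis) for each of 2192 genes in each mutant, both as log2 of mutant over WT. Coloured points are the 4 genes, named where they stand out, and the dashed line marks equal values. eaf6 in S7A and S2A/S7A, and mug62 and cdd1 in S2A, lie far above the line with introns near 0, while mpn1 lies near it.

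The genes next to the 4 on chromosome I did not share their large values. Order along the chromosome came from the reference annotation, and the 3 measured genes on each side of a member, 24 in all, were tested by gene value. In S7A 7 of them rose and 6 fell, where 18% and 16.6% of all genes did. In S2A 12 rose and 2 fell (31.2% and 27.1% of all genes), in S2A/S7A 14 rose and 2 fell (35.1% and 27.8%), and in S7E 11 rose and 3 fell (33.5% and 27.6%). Their medians were 0.044, 0.15, 0.20 and 0.15 in S7A, S2A, S2A/S7A and S7E, beside medians over all genes between 0.0027 and 0.043.

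Around eaf6, the neighbours ranged from -0.26 to 0.24 in S7A and from -0.20 to 0.31 in S2A/S7A. arc2, which encodes a subunit of the actin-nucleating Arp2/3 complex and overlaps eaf6 in the annotation, was at -0.037 ± 0.059 in S7A (adjusted p = 0.675) and rose by 0.31 ± 0.054 in S2A/S7A (adjusted p = 0.000143), by 0.30 in S2A and by 0.36 in S7E. Of the 2 mutants where eaf6 was high, arc2 thus rose in S2A/S7A and did not pass the test in S7A. Near mpn1, ala1, the gene of alanine-tRNA ligase, fell by 0.41 ± 0.040 in S2A/S7A. It was also lower in S2A (-0.22), S7E (-0.34) and S7A (-0.13, adjusted p = 0.0295). The S7A call of ala1 was lost with the arrays of each mutant fitted alone (adjusted p = 0.0686) and with the replicate block (0.0845). It was lost too without S7A replicate 2, 3 or 4 (adjusted p from 0.0754 to 0.121). cka1, the catalytic subunit of casein kinase 2, was at -0.20 in S7A, 0.15 in S2A, 0.078 in S2A/S7A and -0.36 in S7E.

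mug62 lies wholly within the annotated span of alp41, which encodes a small GTPase of tubulin folding, and cdd1 wholly within that of azr1, which encodes a phosphatase. The exon of alp41 was at -0.059 ± 0.087 in S2A (adjusted p = 0.585), and its 5 junction probes lay between -0.024 and 0.12 there, none past the test. alp41 in S7A rose by 0.44 ± 0.087 (adjusted p = 0.00127) with junctions from 0.37 to 0.76, in S2A/S7A by 0.32 ± 0.079 and in S7E by 0.54 ± 0.10. Of the 5 intron probes of alp41, intron 4 (-0.51 ± 0.065, adjusted p = 9.46e-06) and intron 5 (-0.35 ± 0.090, adjusted p = 0.00363) fell in S2A, and both fell in S2A/S7A as well, by 0.59 and 0.57. No exon or junction probe of alp41 thus passed the test in the mutant where mug62 was high, while 2 of its introns fell there. Introns 1 and 2 of alp41 fell in S2A/S7A as well (-0.37 and -0.19), and intron 5 fell in S7A (-0.30). Its intron 3 rose in S7E (0.26). azr1 rose in S2A by 0.45 ± 0.047 (adjusted p = 1.22e-06), with its junctions at 0.50 and 0.42, and by similar amounts in S2A/S7A (0.40 ± 0.042) and S7E (0.59 ± 0.055). In S7A it was at 0.14 ± 0.047 (adjusted p = 0.0328), lost with no dye term (adjusted p = 0.0967) and without S7A replicate 1, 2 or 3 (0.0722 to 0.141). Intron 1 of azr1 rose in S2A, S2A/S7A and S7E, by 0.23, 0.21 and 0.40. Its intron 2 fell in S7A (-0.55 ± 0.059) and S2A/S7A (-0.15) and did not pass the test in S2A or S7E. The strand that each probe reads is not stated, so RNA of overlapping genes cannot be told apart by position.

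The largest neighbour value belonged to atf31, a bZIP transcription factor gene and the third measured gene past mug62. It fell in S7A (-0.95 ± 0.068, adjusted p = 1.08e-07), rose by 1.16 ± 0.068 in S2A (adjusted p = 3.58e-09) and by 0.75 ± 0.062 in S2A/S7A (adjusted p = 6.76e-08), and was at -0.18 ± 0.080 in S7E (adjusted p = 0.0625). rdh54, a recombination gene between them, rose in S2A by 0.55 ± 0.063 (adjusted p = 3.51e-06), in S2A/S7A by 0.37 and in S7A by 0.24. On the mean of all its probes rdh54 was at -0.066 in S2A/S7A. Beside cdd1, cgr1 was at 0.82 ± 0.21 in S7E (adjusted p = 0.00337), and at 0.18 (adjusted p = 0.0541) without S7E replicate 1. sdh1, the gene of a succinate dehydrogenase subunit, rose in all 4 mutants by 0.22 to 0.52, with the S7A call lost without S7A replicate 1 (adjusted p = 0.0547) or 4 (0.0794) and at 0.044 (0.559) on the mean of all its probes.

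For the complexes that hold Eaf6, 18 other subunit genes of NuA4 and Mst2 were measured. In S7A 1 rose and 3 fell (18% and 16.6% of all genes did), in S2A 3 rose and 2 fell (31.2% and 27.1%), in S2A/S7A 10 rose and 2 fell (35.1% and 27.8%), and in S7E 3 rose and 6 fell (33.5% and 27.6%), with medians of -0.067, 0.019, 0.15 and 0.0065 in the same order of mutants. None of the medians came near the value of eaf6. The scaffold gene tra2 rose in S2A (0.71 ± 0.054) and S2A/S7A (0.32 ± 0.049), was at 0.060 in S7A and fell in S7E (-0.21). swc4 rose in S2A (0.42 ± 0.041) and S2A/S7A (0.13) and fell in S7A (-0.23 ± 0.041) and S7E (-0.16). ptf1, of the Mst2 complex, fell in all 4 mutants. It was at -0.45 ± 0.062 in S2A, -0.63 ± 0.072 in S7E, -0.20 in S2A/S7A and -0.17 in S7A. The S7A call of ptf1 was lost with no dye term in the fit (adjusted p = 0.0538).

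For U6 RNA, the substrate of Mpn1, 13 genes of its binding and processing were measured. In S7A, where mpn1 was lowest, 1 rose and 1 fell (18% and 16.6% of all genes did), and in S7E 5 rose and 3 fell (33.5% and 27.6%). In S2A 3 rose and 3 fell (31.2% and 27.1%), and in S2A/S7A 7 rose and 1 fell (35.1% and 27.8%). lsm3 and lsm4, which encode members of the ring that binds the end of U6, rose in S7E by 0.36 ± 0.046 and 0.20 ± 0.062, although lsm4 was at 0.016 there on the mean of all its probes (adjusted p = 0.771). Both also rose in S2A/S7A (0.17 and 0.37), lsm3 in S7A (0.12) and lsm4 in S2A (0.23). The S7A call of lsm3 was lost without any 1 of the 4 S7A arrays (adjusted p from 0.0532 to 0.112), and the S2A call of lsm4 was lost on the mean of all its probes (adjusted p = 0.0609). bmc1, the gene of a methyltransferase found with U6, fell in all 4 mutants, by 0.78 ± 0.052 in S2A, 0.29 in S2A/S7A, 0.24 in S7A and 0.22 in S7E. The S7E call of bmc1 was lost without S7E replicate 2 (adjusted p = 0.0795).

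The U6 gene itself, snu6, whose transcript carries an intron, had a junction and an intron probe but no exon probe. Its junction probe rose in S7A (0.62 ± 0.12, adjusted p = 0.000641), in S2A/S7A (0.39 ± 0.10, adjusted p = 0.00462) as well as S7E (0.59 ± 0.14, adjusted p = 0.00202), and was at -0.23 ± 0.12 in S2A (adjusted p = 0.112). Arrays lay between 0.35 and 1.21 in S7A, 0.038 and 0.67 in S2A/S7A, 0.56 and 0.68 in S7E, and -0.57 and -0.0058 in S2A, so S2A was the 1 mutant with all arrays below WT. The intron probe was at 0.15 ± 0.060 in S7A (adjusted p = 0.0562), fell in S2A/S7A (-0.23 ± 0.062, adjusted p = 0.00480, and 0.0975 without S2A/S7A replicate 3) and was at -0.11 in both S2A and S7E, not past the test. These probes were looked up after the gene table showed no value for snu6. Of the other spliceosomal RNAs, snu1 and snu4 were tested: snu4 rose in S7A (0.53 ± 0.10) and fell in S2A/S7A (-0.54 ± 0.10), in S2A (-0.35 ± 0.10) and in S7E (-0.39 ± 0.12). The call in S2A was lost without S2A replicate 3 (adjusted p = 0.0719) and that in S7E without S7E replicate 1 (adjusted p = 0.177). snu1 fell in S2A (-0.34 ± 0.13, adjusted p = 0.0316), a call lost with array weights (adjusted p = 0.0610) and without S2A replicate 1, 3 or 4 (0.0725 to 0.223).

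Other genes of pyrimidine salvage and synthesis ran opposite in sign to the exon value of cdd1 in S2A. Of 16 measured, 12 fell and 0 rose in S2A, where 27.1% of all genes fell, with a median of -0.66 beside 0.025 over all genes. In S2A/S7A 12 fell and 0 rose (median -0.43, 27.8% of all genes fell), in S7A 7 fell and 0 rose (median -0.17, 16.6%), and in S7E 8 fell and 0 rose (median -0.26, 27.6%). These falls thus also occurred in mutants where cdd1 was near WT. Uracil-regulatable urg1 and urg2 dropped by 3.36 ± 0.16 and 3.07 ± 0.15 in S2A, fell also in S2A/S7A (-1.92 and -1.93) and S7A (-1.21 and -1.24), and stood at 0.081 and -0.21 in S7E, not past the test. urh1, the gene of a uridine ribohydrolase, fell in S2A (-2.10 ± 0.11), S2A/S7A (-1.17), S7A (-0.53) and S7E (-1.29).

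mug62 shares its name series with 85 other measured mug genes, collected only for higher RNA in meiosis. Of these 44 rose and 10 fell in S2A (31.2% and 27.1% of all genes did), with a median of 0.19, against 5.74 for mug62. In S7A 28 rose and 11 fell (18% and 16.6%), in S2A/S7A 48 rose and 15 fell (35.1% and 27.8%), and in S7E 42 rose and 14 fell (33.5% and 27.6%), with medians of 0.088, 0.22 and 0.19. mug103 rose in all 4 mutants, by 1.03 ± 0.065 in S2A, 0.27 in S7A, 0.46 in S2A/S7A and 0.42 in S7E. mug15 also rose in all 4, by 0.40 to 0.81. mug184 fell in S7E (-1.58 ± 0.070) and in S2A/S7A (-0.29).

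Across arrays, the gene most like cdd1 in its values was mug62, with Pearson's r = 0.990 over the 15 arrays that had both. Likeness was taken over all genes with a value on every array used, and since the points are 4 groups of arrays, r mostly reflects group means and is given as a description. SPAC11D3.15, SPCC4B3.13 and SPBC2A9.13 were near both, with r between 0.944 and 0.971, and etr1 was the fourth for mug62 (0.944). Their values in S2A, from 0.35 in SPCC4B3.13 to 2.61 in SPBC2A9.13, were well under those of mug62 and cdd1. Nearest to eaf6 were SPBC1271.07c (0.962), idp1 (0.959), utp502 (0.926) and gto1 (0.914), of which SPBC1271.07c had means of 1.22 in S7A and 1.53 in S2A/S7A. Nearest to mpn1 were naa35 (0.987), the CENP-B homologue gene cbh2 (0.983), gdt1 (0.981) and SPBC31F10.17c (0.977). gdt1 came closest in size, with means of -1.80 in S7A, 1.39 in S2A, 0.84 in S2A/S7A and -1.11 in S7E.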

How the data were processed

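The files hold, per the labels and the file headers, a single value for each probe on each of 16 Agilent arrays with 2 colours. The authors deposited it as a log ratio, read here as log2 of mutant over WT. How they normalized it, and whether arrays shared WT RNA, is not stated in the labels or headers. The labels put the mutant in Cy5 on 7 arrays, and on 9 they put it in Cy3. If arrays shared WT RNA, testing such a ratio against 0 takes no account of variation between WT cultures.

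With limma (version 3.58.1, R 4.3.3), a mean for each of 4 mutants and a dye term were fitted over the 16 arrays, once over 14476 probes and once over 5163 gene values (the mean of exon probes or, where a gene makes non-coding RNA, of its RNA probes), for features with at least 2 values in each group. Tests were two-sided, Benjamini-Hochberg adjusted over all features of a contrast, and passed under 0.05. Of the 31 junction, skipping and intron probes of the 4 genes, 18 were tested. The fit was tested on simulated data. Names and gene order came from a reference table (ASM294v3), in which 5094 of 5195 genes matched. The build behind the probes is not given, so no coordinates are printed.

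The members and gene lists were chosen with earlier results of these data known. Genes named come from the members, the 3 measured neighbours on each side, the 3 genes of each list with the smallest p in any mutant, snu6, and the 4 genes most like each member. mfm2, nar1 and the limits for large probe gaps were chosen after their values were seen. Neighbours not named enter only the counts, and a result on 1 of them is not reported here. Alternatives changed the dye term, centring, spread, weights, filters, arrays and replicate block.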

Additional observations from a re-analysis of the deposited data

Results flagged for a closer look

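Over 64 groups of 4 or 5 arrays of the probes of these genes, 7 held an array far from the others by Dixon's criterion, which chance flags in about 1 of 20. For mug62 in S2A, replicate 4 read 4.70 on the exon probe, with the others between 5.96 and 6.18, and 0.45 on the skipping probe, with the others between 1.16 and 1.22. Replicate 1 of S2A read 0.081 on intron 3 of mug62, with the others between -0.016 and -0.015. For mpn1 in S7A, replicate 4 read -1.64 on intron 4, with the others between -2.26 and -2.19, and -1.23 on the probe joining exons 3 and 5, with the others between -1.62 and -1.58. For eaf6, S7A replicate 1 read 3.31 on the exon probe, with the others between 2.76 and 2.80, and S2A replicate 2 read -0.086 on intron 1, with the others between 0.077 and 0.11. Of the 7 readings, 4 came from a replicate 4, 2 of them from S7A and 2 from S2A. The S7E group has 3 arrays and was not examined this way.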

How the results depend on the processing

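Of 72 pairs of a tested probe of these genes and a mutant, 48 passed the test, 37 of them under every alternative that gave a value, 0 changed sign as a call, and 11 were lost under at least 1, among them 2 of the 34 of mpn1. With arrays scaled to equal spread, the exon means were 3.63 for eaf6 in S7A, -3.06 for mpn1 in S7A and -1.74 for mpn1 in S7E. The intron 3 probe of mug62 in S7E minus S7A lay between -0.32 (without S7E replicate 1, adjusted p = 0.0254) and 0.60 (without S7E replicate 3) as single arrays were left out, and turned to -0.34 (adjusted p = 0.0114) without S7E replicate 1, S7A replicate 4 and S2A replicate 4. With the mean of all probes of a gene, azr1 in S7A was at -0.025, cbs2 at -0.27 in S7A, -0.011 in S2A and -0.13 in S2A/S7A, rdh54 in S2A/S7A at -0.066 and cka1 in S2A/S7A at -0.098. Leaving out arrays one at a time moved the probes past the test to between 11 and 13 in S7A, 12 and 13 in S2A, 6 and 11 in S2A/S7A, and 11 and 15 in S7E. Replicate numbers gave no clear pairing of the arrays: of 21 same-number pairs, 8 had correlated deviations over 0.1 (lowest -0.23, median 0.075, highest 0.42). A pair with unlike numbers, S2A/S7A replicate 5 and S7A replicate 4, reached 0.45. The deviations were taken from group means with the dye effect left in. Same-number arrays of S7A, S2A and S7E had the mutant in the same dye, so number and dye are mixed in these correlations. With replicate number as a block, 11, 13, 10 and 13 probes passed in S7A, S2A, S2A/S7A and S7E, where without it 11, 13, 9 and 15 did. The number of arrays, 3 in S7E, limits the precision.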

Other observations

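Of the 35 probes, 10 had values on too few arrays to be tested and 3 had none. The 5 junction probes of mug62 gave values on at most 3 arrays each. S2A replicate 4, which had the lowest S2A exon value, read 0.75 for exons 1 and 2, 1.01 for exons 3 and 4 and 0.62 for exons 4 and 5. S2A replicate 1 read 0.45 for exons 2 and 3, and no other S2A array gave a junction value. These 4 values were all above 0 and all below the lowest S2A exon value of 4.70. Intron 3 of cdd1 read between 0.068 and 0.33 on 3 S2A arrays.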
